A study of Mus musculus with 4 samples.

Results

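C1qa, C1qb, C1qc and Apoe, 4 of the 27998 gene identifiers counted, were followed cell by cell in the pancreas of mouse embryos at embryonic day 15.5. They were chosen by name with earlier results of these data known, in which their unique molecular identifiers (UMIs, counts of captured RNA molecules) were far more frequent in the control than in the knockout library. Levels are given as CPM, the UMIs of a gene per 1000000 UMIs of a cell or of a group of cells summed. Taken over all control cells, C1q (its 3 genes summed) had a level of 5113 CPM, against 292 over all knockout cells. Apoe had 11802 and 829. These values chose the genes and are a description only. The C1q genes encode the A, B and C chains of C1q, the recognition molecule that starts the classical complement pathway when it meets antibody, microbial surfaces or dying cells. Apoe encodes apolipoprotein E, which carries cholesterol and other lipids between cells. Tissue macrophages are a main source of C1q in most organs, and they also make apolipoprotein E.

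Single-cell libraries of the 10x Genomics droplet type were made from embryonic pancreas sorted by flow cytometry for epithelial cells. Control embryos were OGTflox/flox, labelled WT, with cells picked on E-cadherin. Knockout embryos were PdxCre;OGTflox/flox;CAG GFP, in which Cre driven by Pdx sequences, active in pancreatic epithelium, removes Ogt, the enzyme that attaches O-GlcNAc sugars to proteins, and their cells were picked on endogenous GFP. The floxed Ogt allele was thus shared by both genotypes, and Cre and the GFP reporter were named only in the knockout. The 2 samples of each genotype are technical sequencing runs whose reads cannot be separated in the table, so each genotype is 1 library, genotype and sort cannot be told apart, and no test between libraries was possible. All intervals below are exact 95% intervals that cover counting error only. Of the control cells 808 of 921 (87.7%) fell in leukocyte clusters and 105 were epithelial-like, against 80 of 553 (14.5%) and 176 in the knockout, which goes against the label of pancreatic epithelial cells for the control library. For Ogt itself, control epithelial-like cells gave 57.1 CPM (112 UMIs) and knockout ones 41.5 CPM (186 UMIs). Control macrophage-like cells gave 69.1 CPM, and the 15 knockout macrophage-like cells held 20 Ogt UMIs. The libraries held 11973979 and 11064540 UMIs and shared 0 cell barcodes.

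Cells were clustered without the 4 genes, and clusters were named from other markers. In the control, 466 cells in 5 clusters were macrophage-like and carried Csf1r at 1031 CPM and Adgre1 at 410. In the knockout only 15 cells were (Csf1r 784, Adgre1 427), so every knockout macrophage value below rests on 15 cells. The control clusters were led by Lyve1 (114 cells), by the iron exporter gene Slc40a1 with Hmox1 (104 cells), by a group of genes with Ccl4 and Tmem119 (60 cells), by genes of DNA replication such as Ung and Hells (98 cells) and by genes of mitosis such as Nusap1 and Mki67 (90 cells). Other control leukocytes were monocyte-like (129 cells), or stayed unnamed and are called by their leading gene: Isg15-led (107 cells, with interferon-response genes), S100a8-led and dividing (57 cells), and Rrm2-led (49 cells).

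The 3 C1q genes lie next to each other on the minus strand of mouse chromosome 4 (mm10, GENCODE M21): C1qb at chr4:136880129-136886187, C1qc at chr4:136889804-136893065 and C1qa at chr4:136895917-136898803. No other annotated gene overlaps these 3 loci. The flanking protein-coding genes were nearly silent in control macrophage-like cells, with Lactbl1 and Epha8 at 0 UMIs, Ephb2 at 7 and Zbtb40 at 11. Apoe lies at chr7:19696109-19699188 on the minus strand, between Apoc4 and Apoc1 on one side and Tomm40 and Nectin2 on the other. Because the levels of the 3 C1q genes and of Apoe are compared across cell groups, the 250 bases before the RefSeq start of C1qb, C1qc and Apoe are shown, read 5′ to 3′ on the gene's strand (GRCm38.p6). Capitals mark GAGGAA, a core letter run of PU.1 sites, and TGCTGA, a core run of sites for Maf factors, on either strand.
C1qb, chr4:136886201-136886450: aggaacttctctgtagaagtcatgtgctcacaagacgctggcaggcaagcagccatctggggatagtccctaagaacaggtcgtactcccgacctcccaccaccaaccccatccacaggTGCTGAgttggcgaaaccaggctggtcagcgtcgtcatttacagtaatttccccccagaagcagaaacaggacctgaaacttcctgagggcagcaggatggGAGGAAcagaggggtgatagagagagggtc
C1qc, chr4:136892915-136893164: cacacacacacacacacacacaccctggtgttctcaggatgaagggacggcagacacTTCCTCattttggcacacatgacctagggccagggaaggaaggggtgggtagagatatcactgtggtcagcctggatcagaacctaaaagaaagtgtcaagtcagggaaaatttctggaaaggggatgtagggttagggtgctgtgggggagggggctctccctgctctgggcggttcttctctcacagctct
Apoe, chr7:19699189-19699438: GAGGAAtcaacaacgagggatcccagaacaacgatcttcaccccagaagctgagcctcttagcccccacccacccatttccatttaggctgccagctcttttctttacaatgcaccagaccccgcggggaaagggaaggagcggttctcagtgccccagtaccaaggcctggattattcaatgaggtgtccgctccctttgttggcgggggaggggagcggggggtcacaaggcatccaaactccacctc
GAGGAA or its reverse complement began 30 bases before the start in C1qb, 193 before it in C1qc and 250 before it in Apoe, and 23.3% of 32851 mouse promoter windows of this length hold it. TGCTGA was found in the C1qb window alone, 131 bases before the start, and in 16.1% of all windows. GGAAGT, a core run of ETS factor sites, occurred in C1qb and C1qc, where it overlaps the GAGGAA match, and in 19.7% of windows. GGGCGG, the core of SP1 sites (32.7% of windows), and AGGTCA, a core run of nuclear receptor sites (14.0%), occurred in C1qc alone, 24 and 174 bases before the start. None of the 3 windows held TATAAA (12.4% of windows). All motifs were searched on both strands. RefSeq's start lies 13 bases upstream of the GENCODE start in C1qb and 151 downstream of it in C1qc. In C1qc the 151 bases nearest the RefSeq start, which hold the GGGCGG match, thus lie within the GENCODE gene. The distance is 0 in Apoe, where 3 windows are listed and the one at the GENCODE start was used. These are matches of letters and not measured binding sites.

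In control macrophage-like cells all 4 genes were abundant. C1qa stood at 2627 CPM (2584 to 2670), C1qb at 3379 (3330 to 3428), C1qc at 2963 (2918 to 3009) and Apoe at 16903 (16794 to 17012). UMIs are not scaled by gene length, so ratios between genes are used here only to compare groups of cells. Per cell, the summed C1q chains ran from 814 CPM through a median of 8580 to 24861, and Apoe from 1629 through 14954 to 60889. Every one of the 3 chains was detected in nearly all of these cells after thinning to 5000 UMIs: C1qa in 99.5%, C1qb in 99.8% and C1qc in 99.8% of 421 cells (99.8%, 99.6% and 100% of all 466 cells unthinned). Shares were high outside the leukocytes too: 74.5%, 89.8% and 76.5% of 98 thinned control epithelial-like cells held the same chains. Unthinned, their shares were 96.2%, 99.0% and 91.4%, with median depths of 10187 UMIs in macrophage-like and 14509 in epithelial-like cells. Whether free RNA gave these UMIs was not tested. The levels separate the groups better, since 450 of the 466 cells exceeded the highest epithelial-like cell for C1q.

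**Figure D1:**
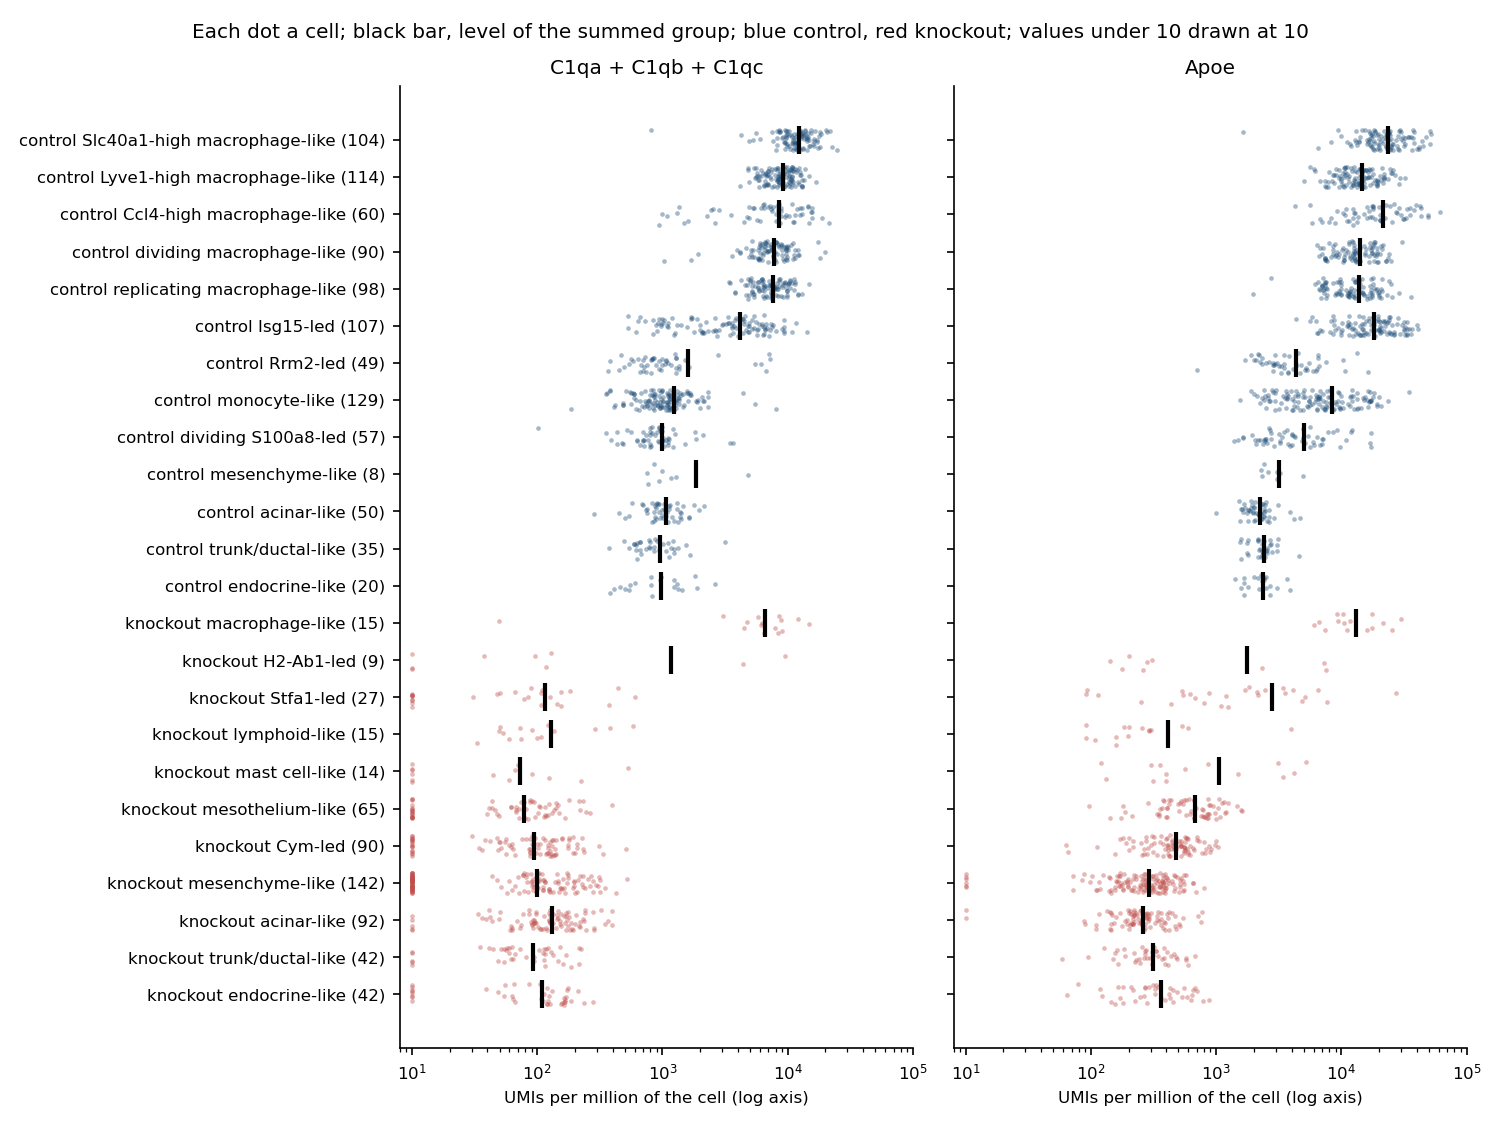
Level of the summed C1q chains (left) and of Apoe (right) in CPM, on log axes, for each cell (dots) and for each group as a whole (black bars), with cell numbers in parentheses. Control macrophage-like groups sit between 7620 and 12231 for C1q, while control epithelial-like cells sit between 962 and 1066 and knockout epithelial-like cells between 92.5 and 132. Values under 10 are drawn at 10.

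The macrophage-like clusters differed in level. Slc40a1-high cells were highest for all 4 genes, with C1q at 12231 CPM (12022 to 12443) and Apoe at 23571 (23280 to 23864). Lyve1-high cells had C1q at 9098 (8927 to 9270) and Apoe at 14653 (14437 to 14872), which is 0.744 of the Slc40a1-high level for C1q (0.725 to 0.763) and 0.622 for Apoe (0.610 to 0.634). Slc40a1 and Hmox1 belong to the handling of iron and haem that macrophages take up with red cells. Dividing cells (C1q 7703, Apoe 14017) and replicating cells (7620 and 13719) lay close together at the lower end. Ccl4-high cells joined a middling C1q level of 8498 to the second highest Apoe level, 21564. They were also the most uneven cluster: C1q ran from 936 to 21173 CPM per cell, and 48 of the 60 cells exceeded the highest epithelial-like cell.

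**Figure D2:**
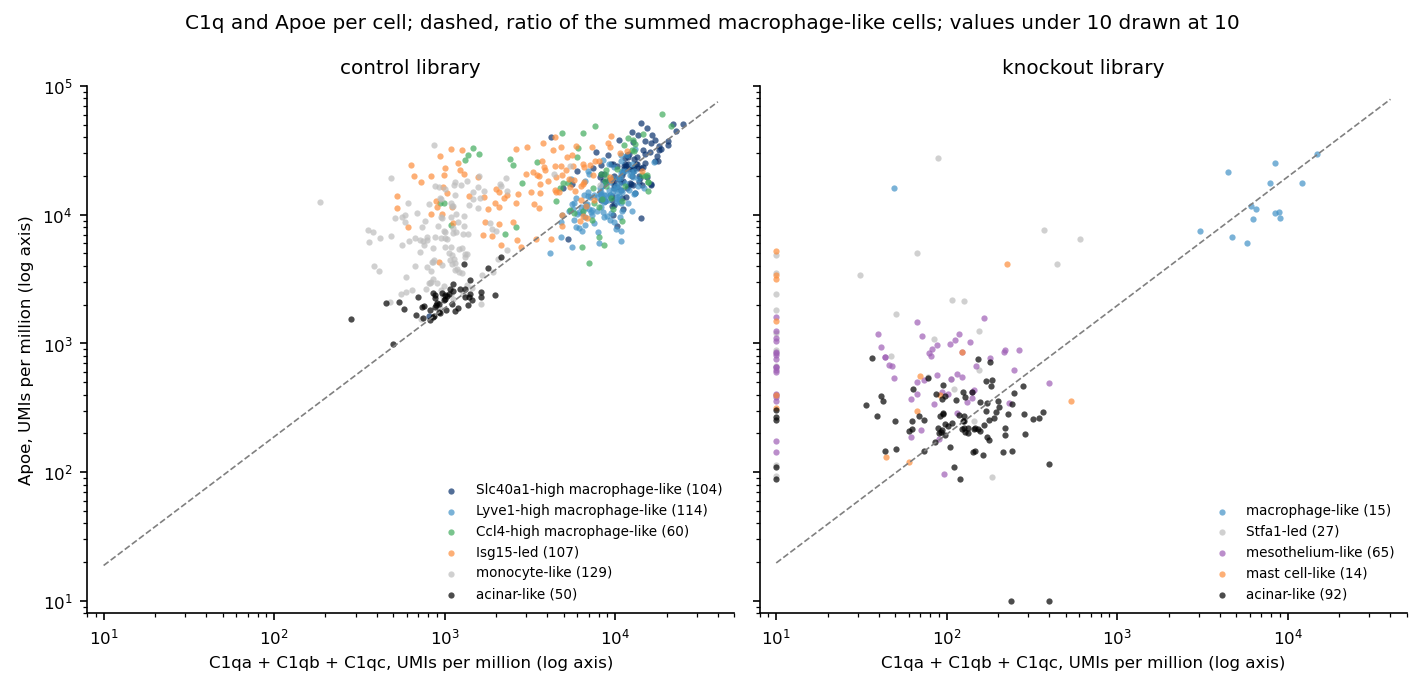
Summed C1q chains (x) against Apoe (y) in each cell, in CPM on log axes, for the control library (left) and the knockout library (right), coloured by group; the dashed line is the ratio in the summed macrophage-like cells. Control monocyte-like and Isg15-led cells lie above the line, with Apoe up to the macrophage range at C1q levels down to those of acinar-like cells.

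Apoe and C1q came apart in the monocyte-like cells. There Apoe stood at 8336 CPM (8184 to 8491), 0.493 of the macrophage-like level and 3.71 times the level in acinar-like cells (3.57 to 3.87). C1q stood at 1236 (1178 to 1297), 0.138 of the macrophage-like level and only 1.16 times that of acinar-like cells (1.08 to 1.25). Exocrine acinar cells are not known to make C1q, and free RNA in droplets can give such cells UMIs, so their level serves here as the background. C1qa was found in 70.1% of 117 monocyte-like cells thinned to 5000 UMIs and in 74.5% of 98 thinned epithelial-like cells. Unthinned shares were 85.3% and 96.2%, with median depths of 9773 and 14509 UMIs. The C1qa share in monocyte-like cells was thus no higher than in epithelial-like cells. C1qa per C1qb in control acinar-like cells was 1.15 times the macrophage-like value (1.02 to 1.31). Its source was not tested, so acinar-like C1qa is a less certain background. By level, C1qa stood at 0.820 of the acinar-like value (0.716 to 0.938), C1qb at 1.40 times (1.25 to 1.57) and C1qc at 1.25 times (1.09 to 1.43). Thinned shares of C1qb were 87.2% in monocyte-like and 89.8% in epithelial-like cells at 5000 UMIs, and 74.4% and 72.4% at 3000 UMIs. Those of C1qc were 77.8% and 76.5% at 5000 UMIs, and 55.8% and 44.8% at 3000 UMIs, so the order of the C1qb shares turned with the depth. Cell by cell, 87 of 129 monocyte-like cells exceeded the highest epithelial-like cell for Apoe (4670 CPM), and 3 of them did so for C1q (3157 CPM).

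Isg15-led cells stood between. Their Apoe, 18059 CPM (17824 to 18296), lay above the macrophage-like total, whereas their C1q, 4180 (4068 to 4295), was less than the level of any macrophage-like cluster and 3.38 times that of monocyte-like cells (3.20 to 3.57). For Apoe, 106 of 107 cells exceeded the highest epithelial-like cell, and 60 did for C1q. Single cells ran from 10th to 90th percentile between 933 and 7414 CPM of C1q. The group thus holds cells as low as the acinar-like level (1066 CPM) as well as cells in the macrophage-like range. Csf1r stood at 905 CPM, Fcgr4 at 176 and Ly6c2 at 97.7 in the group, against 559, 125 and 209 in monocyte-like cells and 1031, 61.6 and 14.2 in macrophage-like cells.

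Put as a ratio, 1.88 Apoe UMIs were counted per C1q UMI in control macrophage-like cells (1.86 to 1.91). Lyve1-high cells had the lowest value among them, 1.61 (1.57 to 1.65), Slc40a1-high cells had 1.93 and Ccl4-high cells 2.54 (2.46 to 2.62). The ratio was 4.32 in Isg15-led cells (4.19 to 4.45), 5.10 in dividing S100a8-led cells (4.76 to 5.48) and 6.74 in monocyte-like cells (6.41 to 7.10). Epithelial-like cells of the same library read 2.23 (2.11 to 2.35), and the whole library read 2.31.

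**Figure D3:**
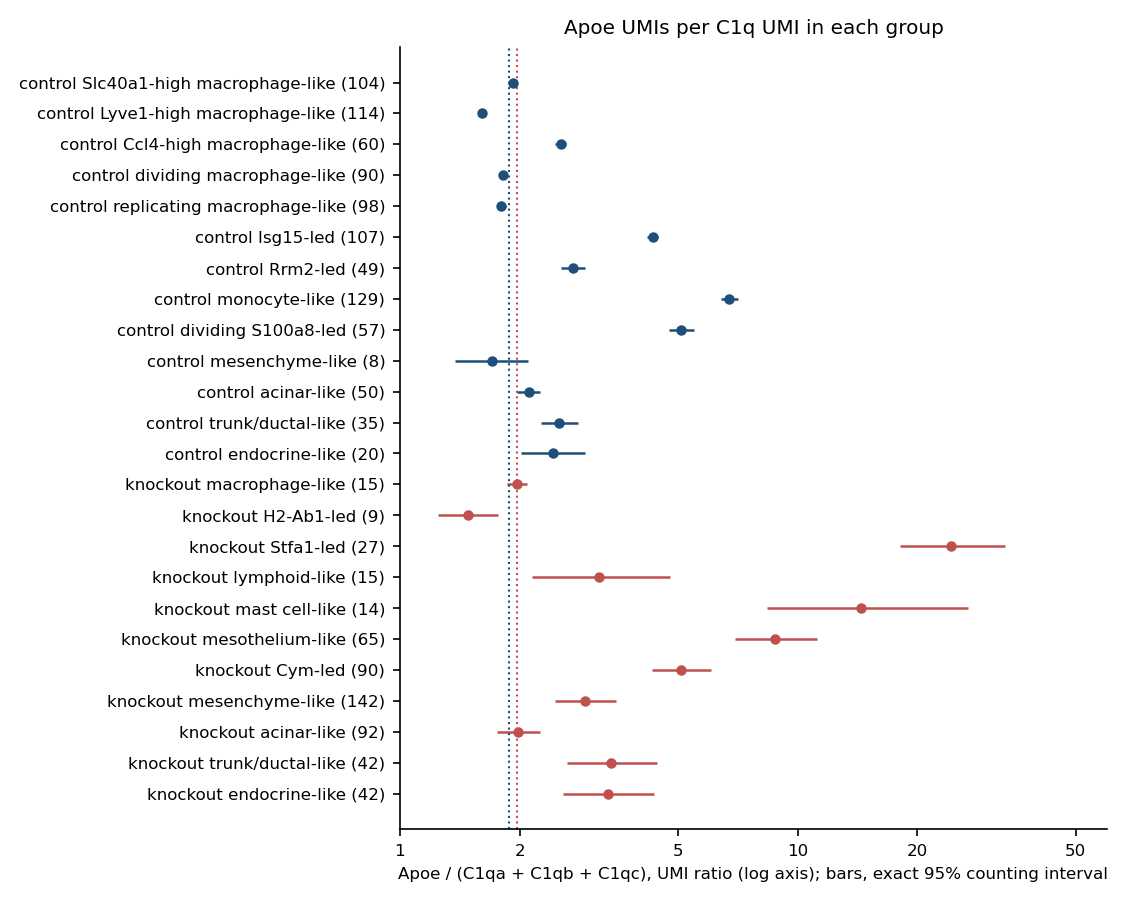
Apoe UMIs per C1q UMI in each group on a log axis, control in blue and knockout in red, with exact 95% counting intervals; dotted lines mark the macrophage-like cells of each library. The monocyte-like (6.74) and Isg15-led (4.32) control groups and the Stfa1-led (24.3), mast cell-like (14.4) and mesothelium-like (8.78) knockout groups lie to the right of the macrophage-like values.

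The chains themselves did not keep 1 proportion. C1qa per C1qb was 0.9499 in Slc40a1-high cells (0.911 to 0.991), 0.761 in Lyve1-high cells (0.726 to 0.798) and 0.670 in Ccl4-high cells (0.629 to 0.713). It was 0.524 in monocyte-like cells (0.464 to 0.591) and 0.410 in Isg15-led cells (0.381 to 0.441), which is 0.527 of the macrophage-like value (0.489 to 0.568). C1q in monocyte-like cells was only 1.16 times the acinar-like level. Their chain proportions were not corrected for that background. C1qc per C1qb varied less among the macrophage-like clusters, from 0.736 in Ccl4-high to 0.963 in Lyve1-high cells, and was 0.649 in Isg15-led and 0.640 in monocyte-like cells. C1qb made up 34.6% of C1q UMIs in Slc40a1-high, 36.7% in Lyve1-high, 38.4% in dividing, 40.1% in replicating and 41.6% in Ccl4-high cells. It made up 48.6% in Isg15-led, 47.1% in Rrm2-led, 46.9% in dividing S100a8-led and 46.2% in monocyte-like cells. Among control leukocytes its part was thus larger in the groups with less C1q than the macrophage-like clusters, though not in strict order of level. Acinar-like cells, also low in C1q, had 38.2%. Over 421 control macrophage-like cells the 3 chains correlated with each other at Pearson's r of 0.58 to 0.60 (log of UMIs after thinning) and with Apoe at 0.32 to 0.39. That gap was not found in every cluster. In 105 Lyve1-high cells the chains correlated with each other at 0.34 to 0.45, and Apoe correlated with C1qa at 0.47 and with C1qb at 0.46. In 91 Slc40a1-high cells C1qc and Apoe correlated at 0.49 and C1qb and C1qc at 0.44, and in 83 replicating cells C1qa correlated with Apoe at 0.29 and with C1qc at 0.24. In 54 Ccl4-high cells the chains correlated at 0.66 to 0.76 and with Apoe at 0.15 to 0.22. The cells share 1 library, and no test was made.

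The 15 knockout macrophage-like cells had lower pooled levels than the 466 control cells. C1q was 6573 CPM against 8969, a ratio of 0.733 (0.698 to 0.769), and Apoe 12962 against 16903, a ratio of 0.767 (0.741 to 0.793). By chain the ratios were 0.671 for C1qa (0.611 to 0.735), 0.788 for C1qb (0.730 to 0.849) and 0.725 for C1qc (0.666 to 0.788). Single cells overlapped: 14 of the 15 lay within the control range of C1q, 11 lay below the control median of C1q and 9 below that of Apoe. The remaining cell had 1 C1q UMI (49.3 CPM) beside 327 Apoe UMIs and 9 Csf1r UMIs, and without it the C1q ratio was 0.793. Knockout macrophage-like cells carried Lyve1 at 495 CPM and control ones at 548, and against the control Lyve1-high cluster alone the ratio was 0.723 for C1q (0.687 to 0.760) and 0.885 for Apoe (0.853 to 0.918). Scaling by TMM factors or by DESeq2 size factors gave 0.654 and 0.664 for C1q and 0.684 and 0.694 for Apoe. The Apoe to C1q ratio, which needs no scaling, was 1.97 in knockout cells (1.86 to 2.09) and 1.88 in control cells. With a gate on Csf1r in place of clusters (52 knockout and 812 control cells) the C1q ratio was 0.362 and the Apoe ratio 0.381. The gate took cells of any cluster, monocyte-like cells included. In control it took more cells than the 808 in leukocyte clusters, so these 2 ratios are not between macrophage-like cells alone. Whether genotype, sort or the few cells set these ratios cannot be told apart. Among control macrophage-like cells, the 80 with Xist and no Y-linked UMI had C1q at 8793 CPM and Apoe at 16322, and the 216 with Y-linked UMIs and no Xist had 8963 and 17040.

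Outside the leukocytes the members were lower in the knockout library. Control epithelial-like cells held C1q at 1032 CPM (987 to 1078) and Apoe at 2300 (2234 to 2369), which are 11.5% and 13.6% of the macrophage-like level. Knockout epithelial-like cells held 121 CPM (111 to 131) and 288 CPM (272 to 304), or 1.84% and 2.22%. Macrophage-like cells made up 50.6% of control and 2.71% of knockout cells. Acinar-like cells of both libraries differed 0.124-fold for C1q (0.110 to 0.139) and 0.117-fold for Apoe (0.108 to 0.126), knockout over control. Of the control acinar-like cells 47 of 50 came from a trypsin-gene (Prss1-led) cluster and 3 from a Cpa1-led cluster, which held all 92 knockout acinar-like cells, so the class was not made of the same cluster in both libraries. In control, acinar-like, trunk/ductal-like and endocrine-like cells read C1q at 1066, 962 and 982 CPM and Apoe at 2244, 2421 and 2378. Trunk/ductal-like over acinar-like cells gave 0.902 for C1q (0.811 to 1.00).

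C1qa did not follow the other chains in knockout acinar-like cells. There 216 C1qa UMIs stood beside 102 of C1qb and 68 of C1qc, so C1qa per C1qb was 2.12 (1.67 to 2.71) against 0.662 in macrophage-like cells, a 3.20-fold difference (2.46 to 4.16). C1qc per C1qb was 0.667 and did not differ from the 0.807 of macrophage-like cells beyond counting error (fold 0.826, 0.596 to 1.144). C1qa exceeded C1qb in 50 of 92 knockout acinar-like cells and C1qb exceeded C1qa in 20, whereas the counts were 22 and 45 among 142 mesenchyme-like cells and 2 and 12 among the 15 macrophage-like cells. In control acinar-like cells C1qa was higher in 14 of 50 cells (28%) and C1qb in 33 (66%). In control macrophage-like cells C1qa was higher in 101 of 466 (21.7%) and C1qb in 348 (74.7%). In the knockout acinar-like cells the 5 cells with most C1qa held 21.3% of its UMIs and none held more than 14. After thinning to 5000 UMIs, C1qa was found in 28.3% of acinar-like cells and 11.3% of mesenchyme-like cells, while C1qc was found in 13.04% and 14.1% (unthinned, C1qa in 84.8% and 25.4%, and C1qc in 46 of 92 cells and 26.1%, at median depths of 31510 and 11358 UMIs).

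**Figure D4:**
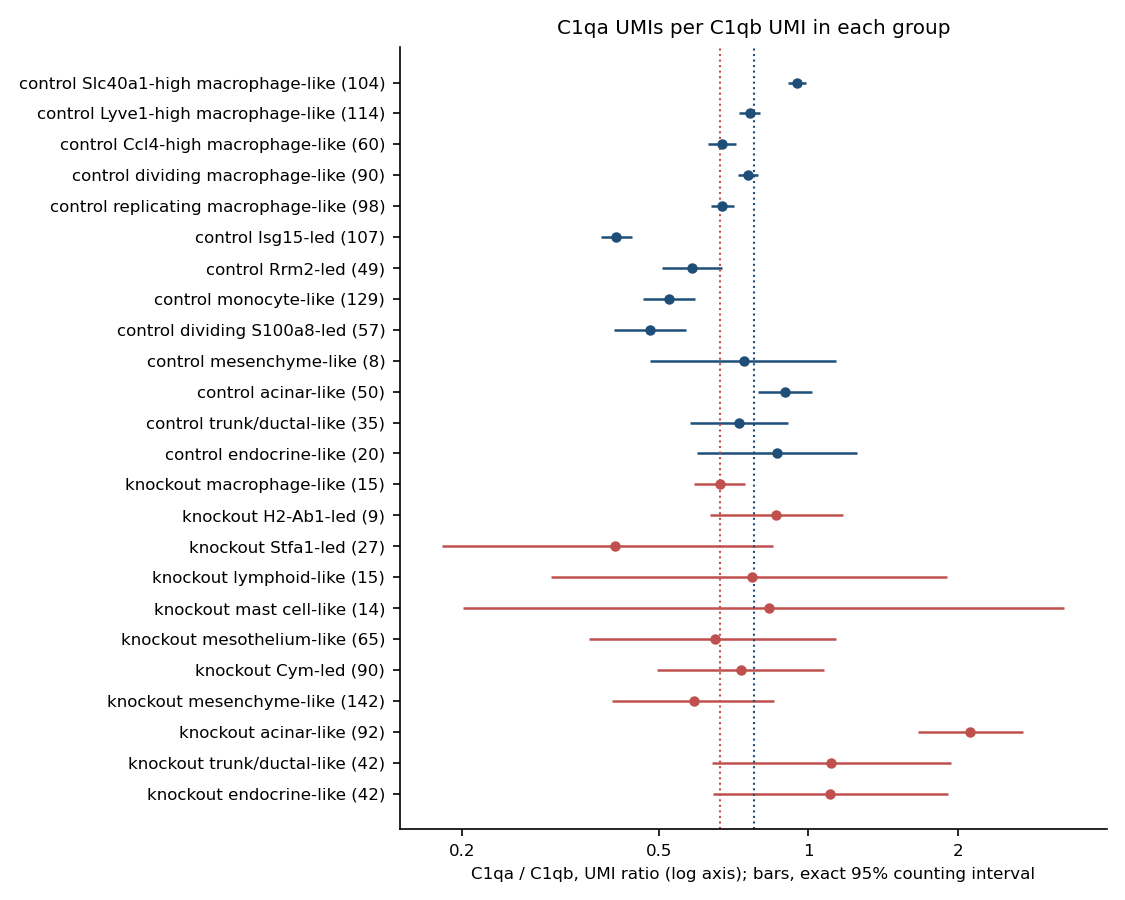
C1qa UMIs per C1qb UMI in each group on a log axis, control in blue and knockout in red, with exact 95% counting intervals; dotted lines mark the macrophage-like cells of each library. Knockout acinar-like cells are highest at 2.12 (1.67 to 2.71). Knockout trunk/ductal-like (1.11, 0.638 to 1.94) and endocrine-like cells (1.11, 0.643 to 1.92) come next, with intervals that overlap it. Isg15-led control cells are lowest among the control groups at 0.410.

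C1qa per C1qb in the other knockout groups ran from 0.407 in Stfa1-led cells through 0.588 in mesenchyme-like, 0.647 in mesothelium-like, 0.731 in Cym-led and 0.862 in H2-Ab1-led cells to 1.11 in trunk/ductal-like and endocrine-like cells. Each of these had an interval of the fold over macrophage-like cells that includes 1, and wide ones where UMIs were few (0.302 to 1.25 in Stfa1-led, 0.985 to 2.86 in trunk/ductal-like and 0.990 to 2.82 in endocrine-like cells). In control acinar-like cells the value was 0.896 against 0.778 in macrophage-like cells, a fold of 1.15 (1.02 to 1.31), and it lay below the 0.9499 of Slc40a1-high cells. C1qa was also expressed as the level beyond what C1qb and the macrophage-like proportion give. This was 50.7 of 73.8 CPM in knockout and 48.1 of 365 CPM in control acinar-like cells. It was 14.4 and -20.1 CPM in knockout and control trunk/ductal-like cells, and 17.5 and 33.2 CPM in endocrine-like cells. No intervals were computed for these levels, so they do not show whether the libraries match. The source of the C1qa UMIs in acinar-like cells was not tested.

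Apoe stood above the acinar-like level in several knockout groups. The summed C1q of acinar-like cells includes their high C1qa, so the chains are compared one by one. Mesothelium-like cells, the lining of the organ's surface, read Apoe at 683 CPM (634 to 735), 2.61 times the acinar-like level (2.35 to 2.89). C1qb stood at 0.938 of the acinar-like level (0.616 to 1.39) and C1qc at 1.03 times (0.626 to 1.66), and of the chains only C1qa was lower beyond counting error, at 0.287 (0.176 to 0.445), which brought the sum to 0.590. Their Apoe per C1q, 8.78, was 4.45 times the macrophage-like value (3.51 to 5.64). Single cells ran from 96.4 through a median of 659 to 1615 CPM, the 5 highest of 65 held 18.1% of the Apoe UMIs, and 15 exceeded the highest epithelial-like cell (884 CPM). Stfa1-led cells, a granulocyte- and monocyte-type group with S100a8 at 13976 CPM, read Apoe at 2776 (2617 to 2942), 10.6 times the acinar-like level. Their C1qb, 65.7 CPM, was 1.89 times the acinar-like level (1.19 to 2.91), C1qc was 0.943 of it (0.414 to 1.90) and C1qa 0.363 (0.178 to 0.662), with the sum at 114 CPM. There 5 of 27 cells held 62.5% of Apoe UMIs, and Apoe per C1q was 24.3 with all cells and 16.5 without those cells, an alternative chosen after seeing the data. Mast cell-like cells had Apoe at 1050 CPM and Cym-led cells at 476, 4.01 and 1.82 times the acinar-like level, with C1q at 72.7 and 93.5 CPM. In the mast cell-like group 5 of 14 cells held 76.7% of the 202 Apoe UMIs, and 5 exceeded the highest epithelial-like cell, with a median of 479 CPM. Of 90 Cym-led cells 5 did so, and the 5 highest held 14.4% of Apoe UMIs. Acinar-like cells themselves had an Apoe per C1q of 1.99 against 1.97 in macrophage-like cells (fold 1.01, 0.880 to 1.15). Per C1qb and C1qc UMI, leaving C1qa aside, they had 4.51 against 2.69, a fold of 1.67 (1.40 to 2.00) near that of trunk/ductal-like (2.05) and endocrine-like cells (2.07).

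Apoc1, the apolipoprotein gene next to Apoe, was distributed differently from Apoe and from C1q. It stood at 540 CPM in Isg15-led, 459 in monocyte-like and 441 in Ccl4-high cells, at 219 in Slc40a1-high cells and at 77.2 in Lyve1-high cells. In knockout Stfa1-led cells it was 324 CPM and in knockout macrophage-like cells 161. Tomm40, the mitochondrial import gene on the other side, stood at 98.4 CPM in control macrophage-like cells, and Apoc4 had 3 UMIs.

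Genes whose levels were most like those of the members were ranked over 19 groups of at least 20 cells among 8605 genes. Nearest to the C1q sum were Ccl24 (r = 0.98), Fcrls, Ms4a7, Stab1, Slco2b1, Lgmn, Abhd12, Cx3cr1, Mrc1 and Pf4. Nearest to Apoe were Lgmn (r = 0.99), Aif1, Csf1r, Hfe, Rgs10, C3ar1, Adgre1, Cx3cr1, Trem2 and Fcgr3. Ms4a7, a membrane gene of macrophages, had 787 CPM in Slc40a1-high, 193 in Isg15-led and 63.7 in monocyte-like cells, against 49.0 in epithelial-like cells. Lgmn, a lysosomal protease gene, kept 572 CPM in monocyte-like cells against 232 in epithelial-like cells. C1q and Apoe themselves correlated at 0.94 over these groups. Fcrls, Stab1, Cx3cr1, Mrc1, Pf4 and Ccl24 near C1q, and Aif1, Csf1r, Adgre1 and Cx3cr1 near Apoe, were also markers used to name the groups. The groups share 2 libraries and any free RNA in them, so these values are descriptions.

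Within control macrophage-like cells the correlations were weaker. Of 1604 genes, Itm2b (0.43), Selenop (0.42), Ms4a7 (0.42), Apoe (0.38) and Fcrls (0.37) came first for C1q, followed by Ctsd, Fcgrt, Slc40a1, Csf1r and Ctsb. Lowest were Ptma (-0.30), Ccr2 (-0.27), Rps23, Tubb5 and Rpl3. For Apoe the first were the lysosomal protease gene Ctss (0.49), the protease inhibitor gene Cst3 (0.47), Itm2b (0.44), Ctsd (0.39) and C1qa (0.38), with Ctsh, B2m, Trem2 and Trf also among the first 10, and the lowest were Actb (-0.38), Ybx1 (-0.36), Cbx3, Ptma and Ranbp1.

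The rest of the complement system and the lipid-handling genes were set beside the members through 11 lists. Each gene was counted as higher or lower in control macrophage-like than in control epithelial-like cells when its CPM differed at least 1.5-fold, among genes with at least 20 UMIs over both. Of all 11008 genes measured, 26.9% were higher and 28.2% lower, with a median log2 ratio of -0.08. The proteases that C1q activates were scarce: C1ra had 10 UMIs in control macrophage-like cells, C1s1 had 0 and C4b, a later substrate, had 8 (these 3 were named after their values were seen). In that list 3 genes were measured, with Fcna (134 against 12.8 CPM) and C2 (24.4 against 5.61) higher and C1rl between (7.11 and 5.61). In the list of C3 and the alternative pathway 3 of 3 measured genes were higher: properdin, Cfp (203 against 23.0), Cfb (27.5 against 2.04) and C3 (12.6 against 6.63). C3 and Cfb were highest outside the C1q-rich cells, with C3 at 122 CPM in monocyte-like and 138 in dividing S100a8-led cells against 4.69 in Slc40a1-high cells, and Cfb at 153 in Isg15-led cells against 13.1 in Slc40a1-high cells.

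**Figure D5:**
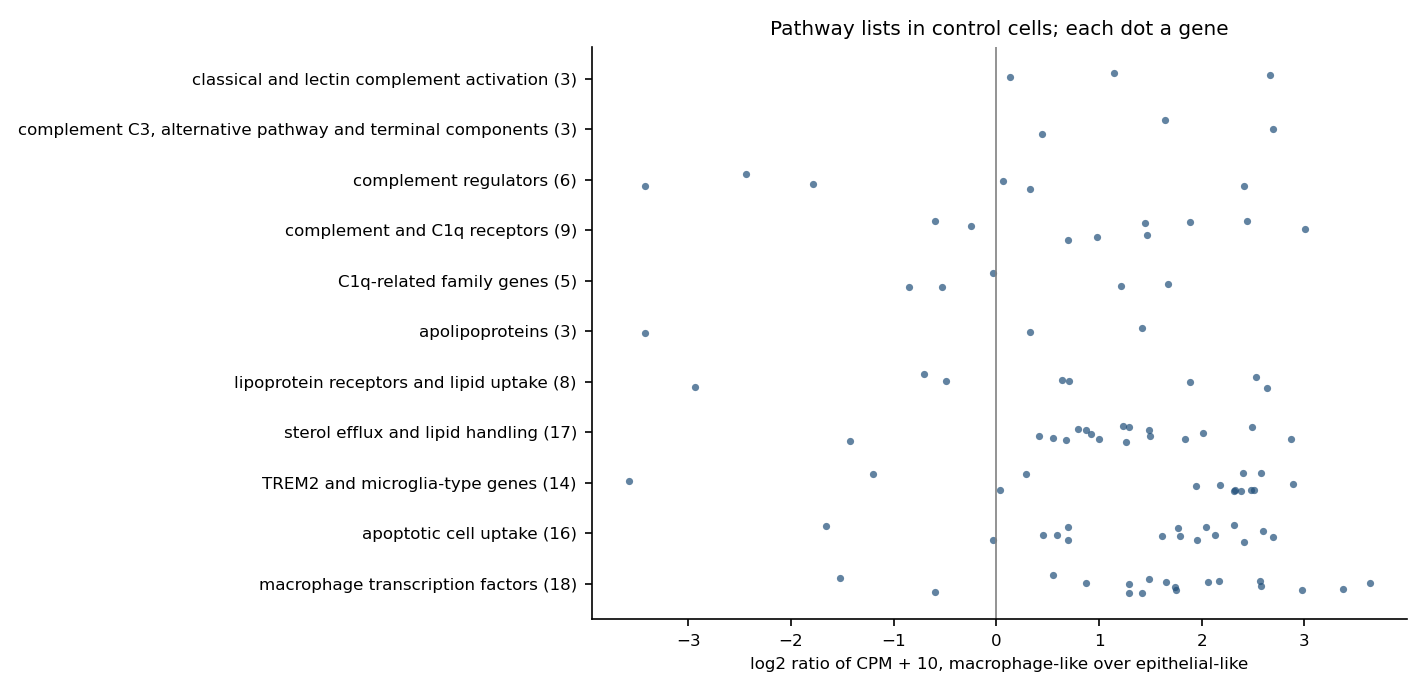
Log2 ratio of CPM + 10 in control macrophage-like over control epithelial-like cells for each measured gene of 11 lists (dots), with the number measured in parentheses. Most genes of the receptor, uptake, lipid-handling and transcription-factor lists lie to the right of 0, and the complement regulators lie on both sides.

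Receptors for complement were higher in 7 of 9 measured, among them the anaphylatoxin receptor genes C5ar1 (230 against 19.9 CPM) and C3ar1 (205 against 29.6), while the broadly expressed C1q-binding genes C1qbp (164 against 255) and Calr (695 against 826) were lower and between, in that order. Of 6 measured regulators 2 were higher and 3 were lower, among them Clu (47.8 against 609) and Vtn (8.39 against 89.8). Other genes of the C1q domain family were low, with Emilin2 at 59.2 and Emilin1 at 32.3 CPM (2 of 5 measured higher, 2 lower). Genes of sterol efflux and lipid handling were higher in 15 of 17 (median log2 1.82), with the lysosomal cholesterol carrier Npc2 (860 against 345), Plin2 (296 against 76.0) and the efflux transporter Abca1 (192 against 26.0) higher and Fabp5 (184 against 511) lower. Lipoprotein receptors were higher in 5 of 8, with Cd36 (138 against 13.8), Msr1 (136 against 15.3), Sdc4 (135 against 78.6) and Lrp1 (78.0 against 13.8). Among apolipoproteins 2 of 3 measured were higher and Clu lower. Genes for the uptake of dying cells were higher in 14 of 16 (median 2.52), including Stab1 (909 against 132) and Gas6 (590 against 103). TREM2 and microglia-type genes were higher in 10 of 14, including Tyrobp (2335 against 411) and Ctsb (3709 against 614), and macrophage transcription factors in 16 of 18, including Maf (680 against 56.6) and Spi1 (466 against 69.9). Since the cells were named by macrophage markers, these counts describe the class and are no test of it.

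Between knockout and control macrophage-like cells 17.2% of 9978 measured genes were at least 1.5-fold higher and 17.4% lower. None of the 9 measured complement and C1q receptors passed 1.5-fold either way, C5ar1 being at 191 CPM in knockout and 230 in control cells and C3ar1 at 191 and 205. Sterol and lipid genes were higher in 1 and lower in 5 of 17, and transcription factors higher in 2 and lower in 8 of 18, with Cebpb (236 against 449 CPM) and Klf2 (262 against 411) among those lower. Maf (487 against 680) and Spi1 (506 against 466) lay within 1.5-fold. The regulators Clu (251 against 47.8) and Vtn (67.5 against 8.39) were higher in the knockout, beside Epcam at 101 against 31.2 CPM and Ctrb1 at 2006 against 1447, both epithelial genes. The part of free epithelial RNA in these differences was not tested.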

How the data were processed

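Single-cell UMI counts of 2 libraries of embryonic mouse pancreas were analysed. The authors deposited whole-number counts per gene and cell barcode, not normalized. Per the submitters' processing notes, Cell Ranger 2.0.0, Seurat 2.0 and DESeq2 1.14.1 were used with build mm10, in roles not given in the sources used here. Of 27998 identifiers, 27722 matched GENCODE M21. Barcodes had to show 500 or more genes, with no more than 10% of UMIs mitochondrial (925 of 941 control, 561 of 617 knockout), and 4 and 8 doublets marked by Scrublet, run through scanpy 1.11.5, were removed. The remaining cells had medians of 10867 and 16168 UMIs.

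Cells were clustered without the 4 members (2000 variable genes, 30 components, Leiden resolution 1). Clusters with at least 8 of 13 leukocyte markers were clustered again in each library alone. This order and the naming rule were settled after the data were seen. Clusters failing the naming rule are called by a leading gene. CPM is the gene's UMIs per 1000000 over the summed cells of a group. Intervals are exact Poisson for levels, exact conditional for ratios and exact binomial for shares. The intervals were checked on simulated counts for the macrophage-like comparison. They held set ratios of 0.25, 0.5, 2 and 4 in 94% to 100% of 50 genes each. A ratio of 1 was held in 97.3% of 9778 genes. Intervals cover counting error only and not the spread between cells. For shares, cells were thinned to 5000 UMIs, leaving out 81 control and 1 knockout cells.

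Named genes were the members, up to 4 genes per list with the highest level in control macrophage-like cells, the 10 genes most like C1q and Apoe over groups (log2 of CPM + 10, at least 200 UMIs), the 10 highest and 5 lowest over cells (at least 500 UMIs), the neighbouring genes, cell type markers and Ogt. Members and lists were chosen with earlier results of these data known. Alternatives covered filters, clustering, scaling with edgeR 4.0.16 and DESeq2 1.42.0, thresholds and thinning. Some genes that this rule names are not reported here.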

Additional observations from a re-analysis of the deposited data

How the results depend on the processing

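No paired analysis was possible because each genotype is 1 library whose technical runs cannot be separated, and for the same reason no replicate could be left out. Of 352 values recomputed, 226 stayed within the reported interval (for counts, within 1.5 times) and 126 moved. A reversal was looked for only in the knockout to control ratios of macrophage-like cells, where 0 were found. The classes themselves changed with the setting, so levels below are not of the same cells. Control macrophage-like cells, 466 as reported, were 584 with doublets kept, 479 with all barcodes, and 396 and 416 at Leiden resolution 0.5 and 2. Control monocyte-like cells, 129 as reported, were 116, 214, 125 and 173 in the same order. The C1q level of control macrophage-like cells (8969 CPM) was 7947 with doublets kept, 8768 with all barcodes, 8876 with the members used in clustering, 9077 and 8246 at Leiden resolution 0.5 and 2, 9063 as the mean of cells and 8864 without the 5 highest cells. Their Apoe level (16903) was 17046 with doublets, 16174 and 16041 at resolution 0.5 and 2, 17066 as the mean of cells and 16578 without the 5 highest cells. Their Apoe per C1q (1.88) was 2.14 with doublets, 1.92 with all barcodes, and 1.78 and 1.95 at resolution 0.5 and 2. In monocyte-like cells it (6.74) was 5.64 with all barcodes and 5.04 at resolution 2. The knockout to control ratio of C1q (0.733) was 0.827 with doublets, 0.649 with all barcodes, 0.786 at resolution 2, 0.782 as the mean of cells, 0.583 with the 5 highest cells left out on either side, 0.654 with TMM, 0.664 with DESeq2 size factors, 0.362 with the Csf1r gate and, chosen after seeing the data, 0.793 without the lowest knockout cell. The ratio of Apoe (0.767) was 0.666 with all barcodes, 0.801 at resolution 0.5, 0.822 as the mean of cells, 0.576 without the 5 highest cells, 0.684 with TMM, 0.694 with DESeq2, 0.794 against control cells with Xist and no Y-linked UMI, 0.381 with the gate and, chosen after seeing the data, 0.885 against Lyve1-high cells. Leaving out the 5 highest cells took 5 of 15 knockout but 5 of 466 control cells. The 0.583 for C1q and 0.576 for Apoe thus compare unequally trimmed groups. TMM and DESeq2 shifted all genes by -0.16 and -0.14 on the log2 scale. In control epithelial-like cells C1q (1032) was 1131 with all barcodes and 978 without the 5 highest cells, and Apoe (2300) was 2370 with doublets, 2480 with all barcodes and 2190 without the 5 highest cells. In knockout epithelial-like cells Apoe (288) was 341 at resolution 0.5 and 307 as the mean of cells. List genes higher in knockout macrophage-like cells were 14 of 96 measured, beside 17.2% of all genes. They were 7 of 77 at a minimum of 100 UMIs (9.37% of all genes). At 2-fold they were 9 of 96 (8.13%), and on log2 of CPM + 10 also 9 of 96 (8.98%). List genes lower were 21 of 96 (17.4% of all genes) and, at 2-fold, 9 of 96 (8.19%). The shares over all genes thus fell too at these settings. C1qa per C1qb in acinar-like cells of both libraries stayed within its interval under every alternative run on it. Except where the alternative itself changes the cells or the scale, the cause was not tested. The 15 knockout macrophage-like cells limit every comparison of genotypes.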
